A study of Homo sapiens with 6 samples.

Results

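A set of 10 heat shock chaperone and co-chaperone genes was followed across RNA-seq libraries of CFPAC-1, a human pancreatic cancer cell line: HSPA8, HSPA1A, HSPA1B, HSPH1, DNAJA1, DNAJB1, BAG3, HSP90AA1, HSPD1 and HSPE1. They were taken by gene symbol, 10 of the 59962 genes in the deposited table, and all 10 reached the level set for testing (a TPM of at least 1 in at least 2 libraries). TPM is a transcript abundance corrected for transcript length with a common total for all libraries, so levels can be compared between genes. The study asked what changes when SULF2, which encodes an extracellular sulfatase that edits heparan sulfate, is knocked down. It held 3 groups of 2 libraries: a control whose guide RNA targets bacterial LACZ, cells with SULF2 guide sgRNA1 and cells with SULF2 guide sgRNA3. All cells therefore carried a guide. The sources used here do not give whether the guides act by cutting or by repression, nor whether a group was a clone or a pool. Separate cultures are not named in the labels, so p-values here measure the spread between 2 libraries of a group, which may be technical. Both comparisons against the control use the same LACZ libraries.

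Heat shock proteins of the HSP70 class bind unfolded stretches of other proteins and release them in cycles of ATP hydrolysis. J-domain proteins such as DNAJA1 and DNAJB1 bring clients and trigger hydrolysis, and nucleotide exchange factors such as HSPH1 and BAG3 help to release ADP. HSP90 takes on partly folded clients, among them many kinases, while HSPD1 and HSPE1 form the folding chamber of the mitochondrial matrix. Several of these genes are classical targets of the transcription factor HSF1, which binds heat shock elements, inverted repeats of the unit GAA (TTC on the other strand). Pancreatic cancer cells are known to make abundant heat shock proteins.

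Each library had 15563 to 15923 genes at 1 TPM or more and 10.3% to 11.2% of its transcripts from mitochondrial DNA, and sequencing depth is unknown because TPM keeps none. SULF2, the targeted gene (chr20:47656348-47786616, GRCh38), stood at 25.69 and 22.52 TPM with LACZ, 8.98 and 12.81 TPM with sgRNA1 and 10.07 and 9.24 TPM with sgRNA3. It fell with both guides (log2 change -1.09, limma adjusted p = 0.0338, and -1.23, limma adjusted p = 0.0215). In bulk libraries such as these, fewer cells with a transcript and less of it per cell cannot be told apart. Of 9 markers of pancreatic duct epithelium, 8 were at 1 TPM or more in every library, and CFTR, a chloride channel of the duct, was below 1 TPM in all. The islet hormones INS, GCG and SST were at 0 in every library, and the summed level of 4 acinar markers was 0.61 to 1.60 TPM. The summed level of 5 fibroblast markers was 77.5 to 77.9 TPM with LACZ, 58.6 to 60.5 with sgRNA1 and 37.5 to 41.7 with sgRNA3, with COL1A1, COL1A2 and LUM the ones that reached 1 TPM. That of 4 endothelial markers was 4.33 to 5.25 TPM over all libraries, with PECAM1 and KDR the ones that reached 1 TPM. That of 4 leukocyte markers was 2.52 to 9.08 TPM. Among these, CD14 was at 1 TPM or more in every library and reached 8.94 TPM, while PTPRC stayed below 1 TPM. Their part in the results below was not tested.

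Promoter sequences are shown where they hold a heat shock element, except for the third window of DNAJB1. The inducible HSP70 genes, HSPA8 and their partners can thus be compared base by base. RefSeq promoter windows (GRCh38.p14, 250 bases before to 50 after a start site) were available for all 10 genes, 14 windows in all, and they were searched for elements of 2 units (GAANNTTC and TTCNNGAA, each its own reverse complement) and of 3 units. The 3-unit forms are GAA, NN, TTC, NN, GAA and TTC, NN, GAA, NN, TTC in a row, each the reverse complement of the other, and each contains both 2-unit forms. Matches are in capitals, 5′ to 3′ on the strand of the gene.
HSPA8 (chr11:123062137-123062386, minus strand): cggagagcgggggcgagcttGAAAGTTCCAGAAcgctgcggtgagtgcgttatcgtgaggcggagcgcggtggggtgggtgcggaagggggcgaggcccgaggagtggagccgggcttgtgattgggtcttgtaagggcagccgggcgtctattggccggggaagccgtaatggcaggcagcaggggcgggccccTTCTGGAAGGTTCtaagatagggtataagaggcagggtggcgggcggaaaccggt
HSPA1A (chr6:31815293-31815542, plus strand): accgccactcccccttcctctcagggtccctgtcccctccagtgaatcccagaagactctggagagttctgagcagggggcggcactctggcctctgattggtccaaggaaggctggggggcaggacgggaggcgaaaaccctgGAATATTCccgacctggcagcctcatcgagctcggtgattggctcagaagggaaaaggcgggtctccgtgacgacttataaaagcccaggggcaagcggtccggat
HSPA1B (chr6:31827488-31827737, plus strand): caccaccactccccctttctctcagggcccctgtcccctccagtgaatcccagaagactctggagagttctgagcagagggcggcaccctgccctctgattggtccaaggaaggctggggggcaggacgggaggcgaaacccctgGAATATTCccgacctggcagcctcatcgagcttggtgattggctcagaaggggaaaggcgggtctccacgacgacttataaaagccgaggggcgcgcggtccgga
DNAJA1 (chr9:33025023-33025292, plus strand): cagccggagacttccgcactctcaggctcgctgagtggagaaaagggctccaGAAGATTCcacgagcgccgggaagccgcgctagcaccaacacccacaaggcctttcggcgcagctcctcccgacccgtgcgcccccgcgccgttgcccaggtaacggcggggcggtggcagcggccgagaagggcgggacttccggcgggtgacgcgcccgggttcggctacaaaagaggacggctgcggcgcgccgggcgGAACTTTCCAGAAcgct
DNAJB1 (chr19:14518398-14518647, minus strand): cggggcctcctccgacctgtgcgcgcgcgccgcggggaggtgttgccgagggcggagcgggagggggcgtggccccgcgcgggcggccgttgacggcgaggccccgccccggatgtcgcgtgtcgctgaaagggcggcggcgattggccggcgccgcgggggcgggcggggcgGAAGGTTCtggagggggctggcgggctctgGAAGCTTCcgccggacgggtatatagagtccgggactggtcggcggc
HSPD1 (chr2:197500051-197500090, minus strand): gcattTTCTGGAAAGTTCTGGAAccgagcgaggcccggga
HSP90AA1 (chr14:102087095-102087144, minus strand): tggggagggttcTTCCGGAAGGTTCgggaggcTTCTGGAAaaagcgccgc

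HSPA8 carried 3-unit elements beginning 230 and 55 bases before its start site. In HSPD1, overlapping 3-unit elements began 245 and 240 bases before the start of its second window, and the stretch printed lies just before the first base of the HSPE1 window (chr2:197500129), on the opposite strand and outside it. HSP90AA1 had one beginning 88 bases before the start of its second window, and DNAJA1 one beginning 3 bases after its start site. A 3-unit element thus lay in 4 of the 14 windows, each of another gene, against 172 of all 35116 RefSeq windows (0.490%). HSPA1A and HSPA1B held a single exact 2-unit element each, GAATATTC, at 106 and 105 bases before the start. Only exact units were searched in all windows, so a neighbouring unit with a changed base was not counted. The windows of HSPA1A and HSPA1B were identical at 277 of 299 aligned bases (92.6%). In DNAJB1, 2-unit elements began 77 and 47 bases before the start. Elements of 2 units were found in 8 of the 14 windows, from 7 genes, against 13.5% of all windows. No match lay in the windows of HSPH1, HSPE1 or BAG3, nor in the first windows of DNAJB1, HSP90AA1 and HSPD1. That says only that these letters are not in these windows.

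HSPA8 encodes the constitutive cytosolic HSP70 (ENSG00000109971, chr11:123057489-123063230). Its level was 567.13 and 617.96 TPM in the LACZ libraries, 1223.46 and 1201.67 TPM with sgRNA1, and 1399.61 and 1443.09 TPM with sgRNA3. Every SULF2 guide library was above every control library, and the sgRNA3 libraries were the highest. The group means were 593 ± 35.9, 1213 ± 15.4 and 1421 ± 30.7 TPM (SD, n = 2 each), 2.05-fold and 2.40-fold the control mean. HSPA8 rose with both guides: the log2 change, on log2(TPM + 1) here and throughout, was 1.03 (95% interval 0.91 to 1.15, limma adjusted p = 0.00117) with sgRNA1 and 1.26 (1.14 to 1.38, limma adjusted p = 0.00111) with sgRNA3. Among the 16610 genes tested, its change ranked 306 and 231 from the top. Its 17 pseudogene rows summed to 0.2 to 1.38 TPM per library.

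HSPA1A and HSPA1B encode the stress-inducible HSP70 from neighbouring genes of the major histocompatibility region (ENSG00000204389, chr6:31815464-31817946, and ENSG00000204388, chr6:31827735-31830255). HSPA1A stood at 32.25 and 35.43 TPM with LACZ, 103.39 and 99.47 TPM with sgRNA1, and 86.01 and 97.65 TPM with sgRNA3. HSPA1B stood at 43.08 and 39.29 TPM with LACZ, 108.24 and 107.05 TPM with sgRNA1, and 106.45 and 102.96 TPM with sgRNA3. In both genes the guide libraries lay far above the controls without overlap, and the sgRNA1 libraries lay slightly above the sgRNA3 ones. HSPA1A had the largest log2 change of the 10 genes, 1.56 (95% interval 1.34 to 1.77, limma adjusted p = 0.00173) with sgRNA1 and 1.41 (1.20 to 1.63, limma adjusted p = 0.00254) with sgRNA3, or 2.997-fold and 2.71-fold the control mean. HSPA1B rose by log2 1.37 (1.21 to 1.52, limma adjusted p = 0.00110) and 1.33 (1.17 to 1.48, limma adjusted p = 0.00128), or 2.61-fold and 2.54-fold. The copies are hard to separate: 71.3% of the distinct 50-base stretches in HSPA1A transcripts also occur in HSPA1B, and the sources used here do not give how shared reads were divided. Their sum does not depend on that division, and it was 75.0 ± 0.431 TPM with LACZ, 209 ± 3.61 with sgRNA1 and 197 ± 5.76 with sgRNA3 (SD, n = 2 each).

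**Figure D1:**
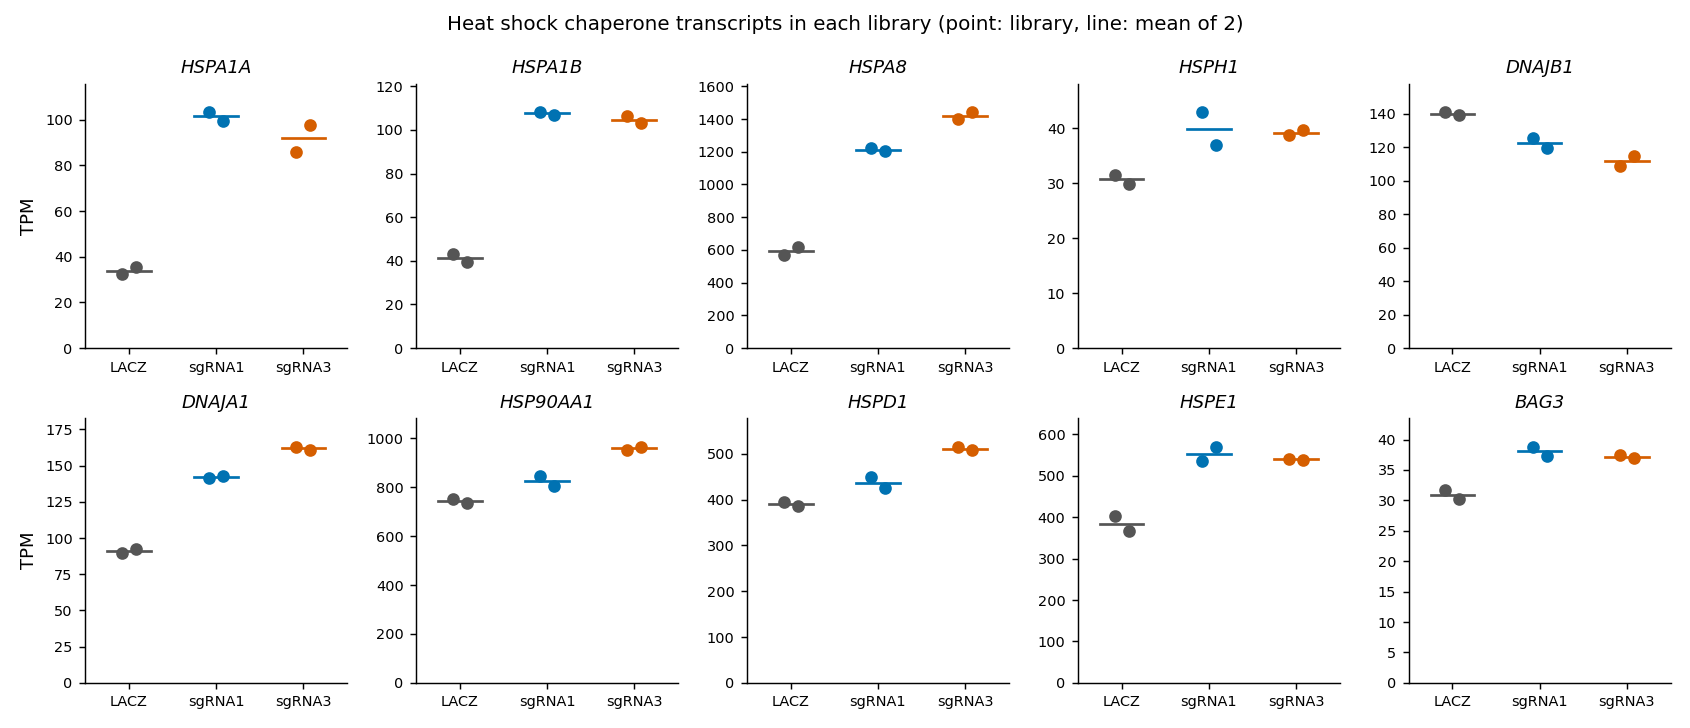
TPM of each of the 10 genes (y axis, from 0, a scale of its own for each gene) in the LACZ, sgRNA1 and sgRNA3 groups (x axis); points are libraries and lines are means of 2. HSPA1A, HSPA1B and HSPA8 show the widest gaps, for example 567.13 and 617.96 TPM of HSPA8 with LACZ against 1201.67 to 1443.09 TPM with the guides, and DNAJB1 is the gene whose guide libraries lie below the controls.

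The J-domain partners moved in opposite directions with sgRNA3. DNAJA1, a cytosolic type A J-domain protein (ENSG00000086061, chr9:33025211-33039907), stood at 89.57 and 92.32 TPM with LACZ, 141.67 and 142.80 TPM with sgRNA1, and 163.03 and 160.60 TPM with sgRNA3. The groups did not overlap, and libraries of a group lay close together. DNAJA1 rose by log2 0.64 (95% interval 0.54 to 0.74, limma adjusted p = 0.00278) with sgRNA1 and 0.82 (0.72 to 0.93, limma adjusted p = 0.00145) with sgRNA3, or 1.56-fold and 1.78-fold. DNAJB1, the type B partner that is itself strongly heat-inducible (ENSG00000132002, chr19:14514770-14529770), stood at 141.14 and 139.21 TPM with LACZ, 125.77 and 119.47 TPM with sgRNA1, and 108.57 and 114.84 TPM with sgRNA3. All its guide libraries lay below both controls, the sgRNA3 ones lowest. With sgRNA3 DNAJB1 fell by 0.33 on the log2 scale (95% interval -0.46 to -0.20, limma adjusted p = 0.0261), to 0.797 of the control mean. With sgRNA1 its log2 change was -0.19 (-0.32 to -0.06) and did not pass the test (limma adjusted p = 0.0968). The sgRNA3 call of DNAJB1 was lost without LACZ replicate 1 or 2 (limma adjusted p = 0.118 and 0.110) or without sgRNA3 replicate 1 or 2 (0.122 and 0.0827), with the replicate number as a block (0.0672) and without a variance trend (0.0904). Of its distinct 50-base stretches, 6.88% also occur in transcripts of 9 other genes, counted on both strands, and 4.31% in those of TECR.

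HSPH1 is an HSP110 protein that acts as a nucleotide exchange factor for HSP70 (ENSG00000120694, chr13:31134974-31162388). It stood at 31.51 and 29.95 TPM with LACZ, 42.98 and 36.90 TPM with sgRNA1, and 38.74 and 39.63 TPM with sgRNA3. BAG3, an exchange factor that links HSP70 to small heat shock proteins and selective autophagy (ENSG00000151929, chr10:119651370-119677819), stood at 31.63 and 30.28 TPM with LACZ, 38.82 and 37.29 TPM with sgRNA1, and 37.42 and 36.96 TPM with sgRNA3. For both genes every guide library was above both controls, yet neither passed the test. The log2 change of HSPH1 was 0.36 (95% interval 0.14 to 0.59, limma adjusted p = 0.0828) with sgRNA1 and 0.34 (0.11 to 0.57, limma adjusted p = 0.0793) with sgRNA3. For BAG3 it was 0.29 (0.13 to 0.45, limma adjusted p = 0.0650) and 0.26 (0.10 to 0.42, limma adjusted p = 0.0697). With median-of-ratios scaling both genes passed with both guides, at limma adjusted p = 0.0327 and 0.0356 for HSPH1 and 0.0286 and 0.0354 for BAG3.

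HSP90AA1, the inducible cytosolic HSP90 (ENSG00000080824, chr14:102080738-102139699), had the highest level of the 10 in the control: 751.28 and 737.07 TPM with LACZ, 846.48 and 804.51 TPM with sgRNA1, and 951.64 and 965.26 TPM with sgRNA3. The groups followed each other without overlap, with sgRNA1 in the middle. Of the distinct 50-base stretches of HSP90AA1 transcripts, 14.0% also occur in transcripts of 33 other genes, counted on both strands. HSP90AA1 rose with sgRNA3 by log2 0.36 (95% interval 0.27 to 0.45, limma adjusted p = 0.00890), or 1.29-fold. With sgRNA1 the log2 change was 0.15 (0.06 to 0.24, limma adjusted p = 0.0772). The sgRNA3 call was lost without LACZ replicate 1 or 2 (limma adjusted p = 0.0524 and 0.0599), without sgRNA3 replicate 1 or 2 (0.0567 and 0.0618) and without a variance trend (0.0705), while with median-of-ratios scaling HSP90AA1 also passed with sgRNA1 (0.0156).

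The mitochondrial chaperonin pair has RefSeq start sites head to head on chromosome 2, while the annotated gene intervals overlap (HSPD1, ENSG00000144381, chr2:197486581-197516737, and HSPE1, ENSG00000115541, chr2:197499994-197503457). HSPD1, the chamber subunit, stood at 394.61 and 386.35 TPM with LACZ, 448.87 and 425.37 TPM with sgRNA1, and 515.20 and 507.37 TPM with sgRNA3. HSPE1, the lid, stood at 403.22 and 365.92 TPM with LACZ, 536.58 and 570.22 TPM with sgRNA1, and 540.73 and 538.42 TPM with sgRNA3. The HSPE1 levels with sgRNA1 and sgRNA3 were close to each other and above both controls, while HSPD1 stepped up from LACZ to sgRNA1 to sgRNA3 without overlap. HSPE1 rose by log2 0.52 (95% interval 0.38 to 0.67, limma adjusted p = 0.0135) with sgRNA1 and 0.49 (0.34 to 0.64, limma adjusted p = 0.0132) with sgRNA3. HSPD1 rose with sgRNA3 by log2 0.39 (0.29 to 0.49, limma adjusted p = 0.00964), and its change with sgRNA1 was 0.16 (0.06 to 0.26, limma adjusted p = 0.0786). With single libraries left out the changes stayed between 0.46 and 0.59 for HSPE1 with sgRNA1, 0.42 and 0.56 with sgRNA3, and 0.37 and 0.40 for HSPD1 with sgRNA3, but several calls were lost in fits that also have fewer residual degrees of freedom. That of HSPE1 with sgRNA1 was lost without sgRNA1 replicate 1 or 2 (limma adjusted p = 0.0516 and 0.0753), without a variance trend (0.0646) and when sgRNA3 was not in the fit (0.0505). With sgRNA3 it was lost without LACZ replicate 2 (0.0560), without sgRNA3 replicate 1 or 2 (0.0715 and 0.0735) and without a variance trend (0.0615). The HSPD1 call was lost without LACZ replicate 1 or 2 (0.0555 and 0.0644), without sgRNA3 replicate 1 or 2 (0.0642 and 0.0588) and without a variance trend (0.0651), and with median-of-ratios scaling HSPD1 also passed with sgRNA1 (0.0187). Pseudogene rows summed to 1.36 to 5.45 TPM per library for HSPD1 and 0 to 3.7 TPM for HSPE1. Counted on both strands, 22.7% of the distinct 50-base stretches of HSPE1 transcripts also occur in transcripts of 11 other genes. The share in HSPD1 alone is 11.04%, and its annotated interval spans HSPE1 on the opposite strand. Of the HSPD1 stretches, 18.4% also occur in 11 other genes.

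Calls here are by limma at an adjusted p under 0.05. With sgRNA1, 5 of the 10 genes rose (HSPA1A, HSPA1B, HSPA8, DNAJA1 and HSPE1), against 1.69% of all genes tested, and 0 fell, against 4.31%. With sgRNA3, 7 rose, the same 5 with HSP90AA1 and HSPD1, against 3.84% of all genes, and 1 fell, DNAJB1, against 5.25%. At an unadjusted limma p under 0.05, 9 of the 10 were higher and 1, DNAJB1, was lower, with either guide. The median log2 change of the 10 was 0.44 with either guide, and that of all genes tested was -0.07 with sgRNA1 and -0.05 with sgRNA3. All 4 guide libraries were above both controls for 9 of the 10 genes (13.2% of all genes) and below them for 1 (23.4%). The 10 genes and the lists below were chosen with earlier results of these data known. Setting their counts beside the shares of all genes is therefore a description and no test of whether they stand out. No share of all genes is given for an unadjusted p under 0.05, so counts at that level, here and below, have no background. HSPA1A, HSPA1B, HSPA8 and DNAJA1 passed with both guides under all alternatives run, with a largest limma adjusted p of 0.0374. The direction of each of the 10 against LACZ was the same under every scaling, although scaling changed the balance over all genes: 28.2% of sgRNA1 calls and 42.2% of sgRNA3 calls were higher, against 51.3% and 56.9% with median-of-ratios scaling and, for sgRNA1, 44.1% with quantile normalization.

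**Figure D2:**
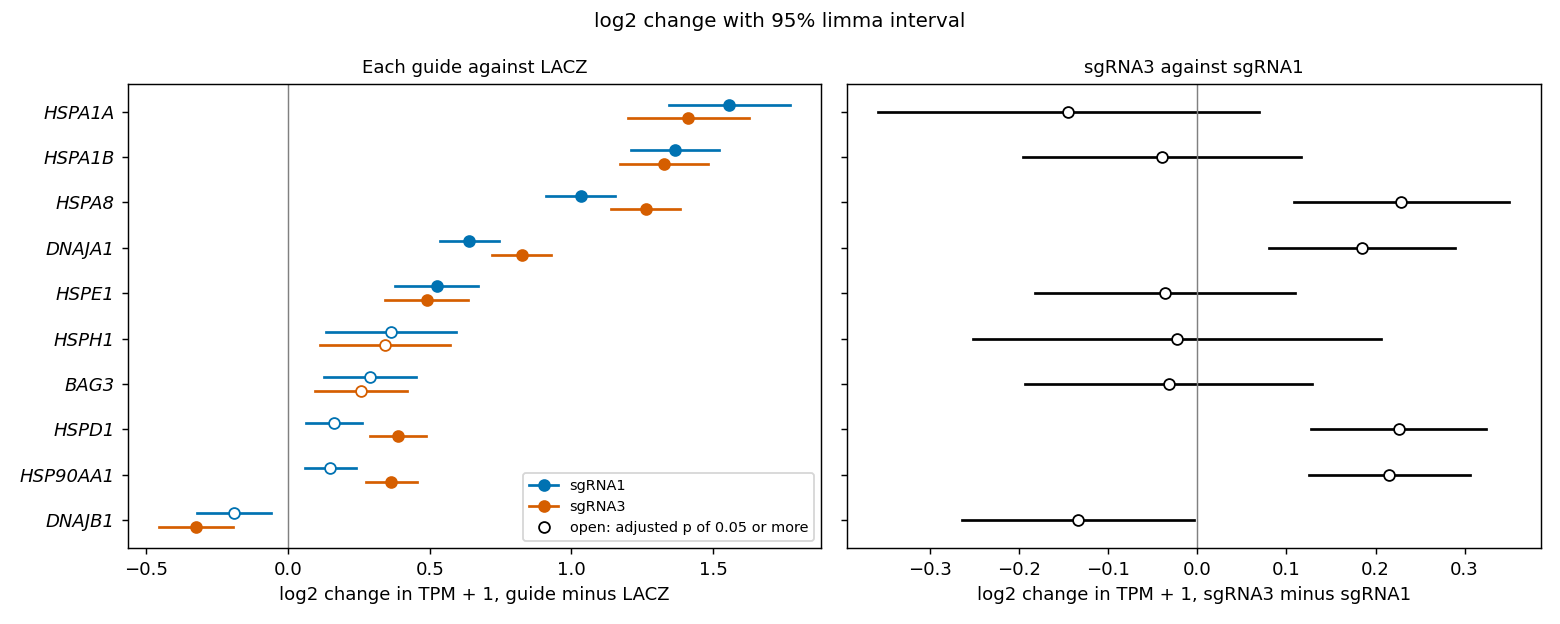
Log2 change in TPM + 1 (x axis) of each gene (y axis), for each guide against LACZ at left and for sgRNA3 against sgRNA1 at right; bars are 95% limma intervals and filled points have an adjusted p under 0.05. The inducible HSP70 genes are farthest to the right (HSPA1A at 1.56 and 1.41), DNAJB1 alone is left of 0 (-0.19 and -0.33), and every point at right is open.

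No gene of the 10 passed a limma test of sgRNA3 against sgRNA1 (0 of 10, against 0.578% of all genes tested in either direction). That share covers adjusted calls only. An unadjusted limma p under 0.05 was reached by 5 of the 10. Of these, 4 were higher with sgRNA3: HSPA8 by log2 0.23 (95% interval 0.11 to 0.35, limma adjusted p = 0.138), DNAJA1 by 0.18 (0.08 to 0.29, 0.153), HSP90AA1 by 0.22 (0.13 to 0.31, 0.0963) and HSPD1 by 0.23 (0.13 to 0.32, 0.103). In these 4 genes both sgRNA3 libraries exceeded both sgRNA1 libraries, an arrangement found in 28.2% of all genes. In HSPA1A, HSPA1B and DNAJB1 both sgRNA3 libraries lay below both sgRNA1 libraries, 3 of the 10 genes against 18.8% of all. DNAJB1 had a difference of -0.13 (-0.26 to -0.0034, limma adjusted p = 0.317). The other 5 had differences between -0.14 and -0.02, with intervals that contained 0 and reached from -0.36 to 0.21 at their widest. So the calls made with sgRNA3 alone, for HSP90AA1, HSPD1 and DNAJB1, are not shown to differ between the guides.

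The 10 genes together summed to 2485.42 and 2473.78 TPM with LACZ, 3616.26 and 3544.75 TPM with sgRNA1, and 3947.4 and 4006.78 TPM with sgRNA3. That is 0.248%, 0.358% and 0.398% of all transcripts in the group means. The guide libraries exceeded the controls by 1299 TPM, and an exact two-sided permutation test of 4 against 2 libraries gave p = 0.0667, the smallest it allows. HSPA8 made up 56.3% of the net gain with sgRNA1 and 55.3% with sgRNA3. HSPE1 came next with sgRNA1 (15.3%) and HSP90AA1 with sgRNA3 (14.3%), while HSPA1A and HSPA1B, the genes with the largest folds, gave 6.14% and 6.04% with sgRNA1 and 3.87% and 4.24% with sgRNA3.

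The order of levels changed with it. In the controls HSP90AA1 was highest, followed by HSPA8, then HSPD1 and HSPE1, whose libraries overlapped, then DNAJB1, DNAJA1, HSPA1B and HSPA1A, and at the bottom BAG3 and HSPH1, which overlapped as well. With either guide HSPA8 stood above HSP90AA1, HSPE1 above HSPD1 and DNAJA1 above DNAJB1, in every library of the group. HSPA1B and HSPA1A kept their places, and HSPH1 and BAG3 stayed last, overlapping with sgRNA1.

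Ratios within a library do not depend on how libraries are scaled to each other. For HSP90AA1 to HSPA8 the ratio was 1.32 and 1.19 with LACZ, 0.692 and 0.669 with sgRNA1, and 0.680 and 0.669 with sgRNA3. DNAJB1 to HSPA8 went from 0.237 ± 0.0167 with LACZ to 0.101 ± 0.00239 with sgRNA1 and 0.0786 ± 0.00142 with sgRNA3 (SD, n = 2 each). The exchange factors stood likewise: HSPH1 to HSPA8 was 0.0520, 0.0329 and 0.0276 in the group means, and BAG3 to HSPA8 was 0.0524, 0.0314 and 0.0262. These 4 ratios share HSPA8, which itself rose, and were lower in all 4 guide libraries than in both controls, as was the ratio to HSPA8 of 86.2% of all other genes tested, so the direction says little of these partners (exact two-sided permutation p = 0.0667 for each, the smallest possible, and 0.1 adjusted over the 6 ratios). The inducible pair to HSPA8 was 0.127 ± 0.00842 with LACZ, 0.172 ± 0.000789 with sgRNA1 and 0.138 ± 0.00106 with sgRNA3, with the sgRNA3 mean nearer to LACZ than to sgRNA1. HSPE1 to HSPD1 was 0.984 ± 0.0528, 1.27 ± 0.103 and 1.06 ± 0.00823 (SD, n = 2 each). Both of these ratios were higher in all 4 guide libraries than in the controls, with exact two-sided permutation p = 0.133 and the same value after adjustment. Against HSPA8, 0.265% of other single genes had this arrangement. HSPA1A alone had it and HSPA1B alone did not, so the ratio of the pair does not show it for each gene. Against HSPD1, 2.86% of other single genes had it. So did 5 of the other 9 genes of the set, HSPE1 among them, so it is not particular to HSPE1. The permutation tests took the libraries of both guides as 1 group of 4, so they test neither guide by itself. For the inducible pair to HSPA8 and HSPE1 to HSPD1, the sgRNA1 and sgRNA3 libraries did not overlap. That difference enters their p-values.

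**Figure D3:**
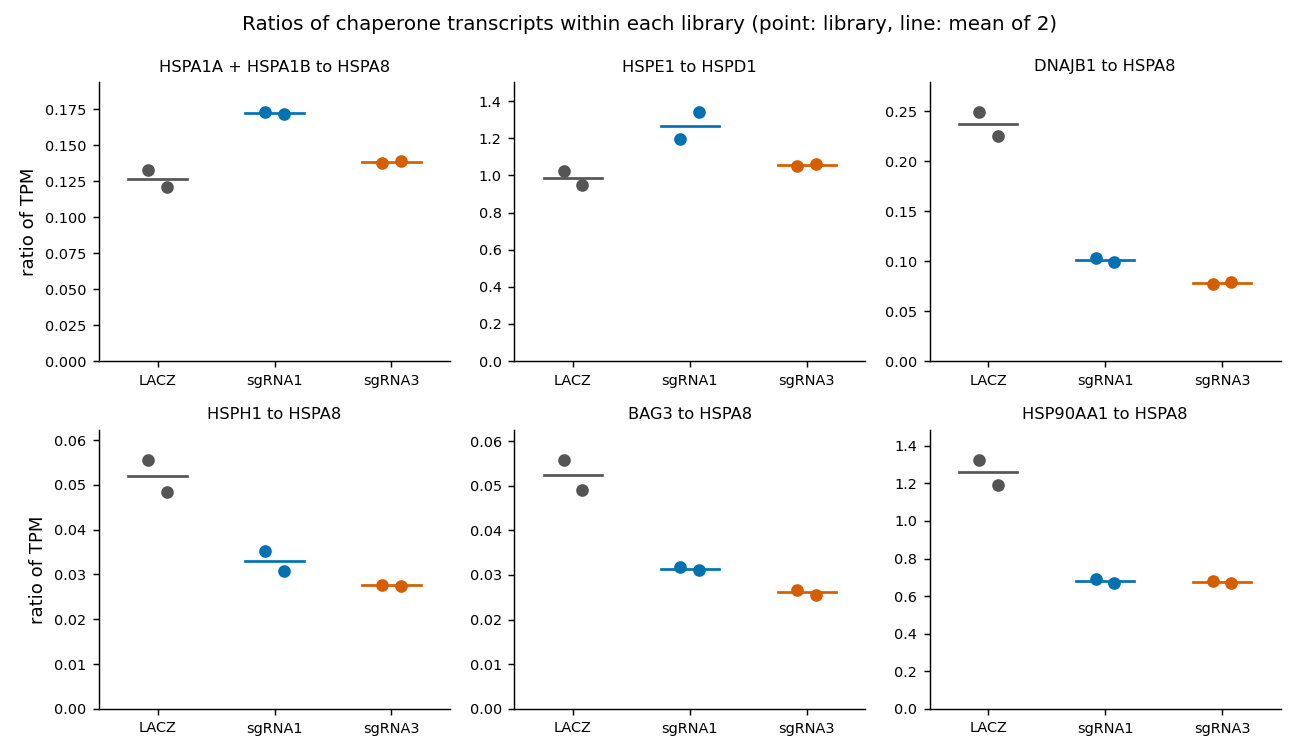
Ratio of TPM values within a library (y axis, from 0) for 6 pairs of genes in the LACZ, sgRNA1 and sgRNA3 groups (x axis); points are libraries and lines are means of 2. HSP90AA1 to HSPA8 drops from 1.32 and 1.19 with LACZ to between 0.669 and 0.692 with the guides, and the inducible pair to HSPA8 is highest with sgRNA1, at a mean of 0.172.

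Across the 6 libraries the most similar pair of the 10 genes was HSP90AA1 and HSPD1, whose log2(TPM + 1) values, each less the mean of the gene, differed by a root mean square of 0.0156. HSPH1 and BAG3 followed at 0.0608, and HSPA1A and DNAJB1 were farthest apart at 0.824. Profiles were then compared, by the same measure, with those of 10756 other genes with a mean TPM of at least 5. Genes of the lists and markers used here, and those with clone or LINC names, were left out, so listed chaperones could not appear. Nearest to HSPA8 were TNFRSF10D (0.103), ABCE1 (0.108), GTF2IRD2B (0.118), ZC3HAV1 (0.124), FAM111B (0.138) and SKP2 (0.143). Nearest to HSPA1A were TNFRSF10D (0.183), GTF2IRD2B (0.212), C4orf48 (0.226), SKP2 (0.229), TIMM21 (0.231) and NPY (0.255). TNFRSF10D, a TRAIL-binding receptor without a working death domain, stood at 9.24 and 10.56 TPM with LACZ and 22.43 to 22.93 TPM with the guides.

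Transcripts of HSF1, HSF2 and HSF4, the heat shock factors listed, and of HSBP1, which binds HSF1 and holds it back, were not higher by the test. Of these 4, 0 passed upward with either guide, against 1.69% of all genes tested with sgRNA1 and 3.84% with sgRNA3. In either direction, 2 with sgRNA1 and 1 with sgRNA3 had an unadjusted limma p under 0.05. The 3 factors had negative log2 changes with both guides, while HSBP1 had changes of 0.28 (limma adjusted p = 0.408) and 0.03 (0.946). HSF2 had changes of -0.48 (0.270) and -0.40 (0.314). HSF1, the main activator, stood at 43.50 and 37.02 TPM with LACZ, 33.60 and 33.74 TPM with sgRNA1, and 35.62 and 36.36 TPM with sgRNA3 (log2 change -0.25, limma adjusted p = 0.177, and -0.15, limma adjusted p = 0.338). HSF4 passed downward with sgRNA1 (-1.01, limma adjusted p = 0.0374), but lost this without any one of the 6 libraries, at adjusted p = 0.0757 to 0.165.

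Other HSP70 and HSP110 genes mostly stayed near 0, with medians of -0.01 and 0.14. In either direction, 3 with sgRNA1 and 4 with sgRNA3 had an unadjusted limma p under 0.05. Of 9 tested of 12, 1 rose with sgRNA1 (1.69% of all genes tested) and 1 with sgRNA3 (3.84%), the same gene. That was HSPA2, another HSP70 best known from testis, at 6.54 and 7.62 TPM with LACZ, 17.98 and 15.96 TPM with sgRNA1, and 12.12 and 13.38 TPM with sgRNA3. Its log2 change was 1.15 (limma adjusted p = 0.0134) and 0.77 (0.0283). The sgRNA1 call of HSPA2 was lost without LACZ replicate 1 or 2 or sgRNA1 replicate 1 or 2 (0.0528 to 0.0786), and the sgRNA3 call without any one of the 6 libraries (0.0526 to 0.126). HSPA5, the HSP70 of the endoplasmic reticulum, had changes of 0.06 (limma adjusted p = 0.427) and -0.01 (0.924), and HSPA9, that of mitochondria, -0.05 (0.686) and 0.02 (0.875). HSPA6, a strictly stress-induced HSP70, stayed between 0 and 0.32 TPM in all libraries and was not tested.

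Of the small heat shock proteins, HSPB1, the most abundant and a holding chaperone that keeps clients soluble, stood at 494.94 and 487.62 TPM with LACZ, 333.69 and 344.51 TPM with sgRNA1, and 294.02 and 298.58 TPM with sgRNA3. It was lower in all guide libraries than in both controls, by log2 -0.53 (limma adjusted p = 0.00274) and -0.73 (0.00128). The sgRNA3 call of HSPB1 held under all alternatives, and the sgRNA1 call was lost only without a variance trend (0.0503). Of 10 listed small heat shock proteins 3 were tested, with medians of 0.01 and 0.05. With either guide 1 fell (4.31% and 5.25% of all genes tested) and 0 rose (1.69% and 3.84%). An unadjusted limma p under 0.05 was reached by 2 with each guide. HSPB11, which takes part in transport within cilia, had changes of 0.40 (limma adjusted p = 0.0664) and 0.25 (0.146). HSPB8, the partner of BAG3, had changes of 0.01 (limma adjusted p = 0.976) and 0.05 (0.890).

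Over all genes tested, 1.69% rose and 4.31% fell with sgRNA1, and 3.84% rose and 5.25% fell with sgRNA3. Of 32 other J-domain genes, 0 passed with sgRNA1 and 2 rose with sgRNA3, near that share. These were DNAJB11 and DNAJC11, and the medians were 0.01 and 0.06. In either direction, 5 J-domain genes with sgRNA1 and 10 with sgRNA3 had an unadjusted limma p under 0.05. DNAJC27, singled out after its values were seen, was at 44.67 TPM in sgRNA1 replicate 1 and between 1.83 and 3.25 TPM in the other libraries. Of 11 other exchange factors and HSP70 regulators, 1 fell with sgRNA1, and 2 rose and 2 fell with sgRNA3 (medians 0.02 and 0.19). An unadjusted limma p under 0.05 was reached by 2 of the 11 with sgRNA1 and 7 with sgRNA3. GRPEL2, a mitochondrial exchange factor, was the one that fell with both: it stood at 28.74 and 29.68 TPM with LACZ, 11.90 and 11.22 TPM with sgRNA1, and 11.31 and 15.68 TPM with sgRNA3, a log2 change of -1.27 (limma adjusted p = 0.0173) and -1.08 (0.0221). The sgRNA1 call of GRPEL2 was lost without LACZ replicate 1 or 2 or sgRNA1 replicate 1 or 2 (0.0753 to 0.1001), and the sgRNA3 call without LACZ replicate 1 or 2, sgRNA1 replicate 1 or sgRNA3 replicate 1 (0.0501 to 0.109). Its paralog GRPEL1 rose with sgRNA3 (0.45, limma adjusted p = 0.0433), as did BAG1, an exchange factor, (0.55, limma adjusted p = 0.0303), while ST13, which slows ADP release, fell.

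For the next 3 lists the shares over all genes tested were again 1.69% higher and 4.31% lower with sgRNA1, and 3.84% and 5.25% with sgRNA3. Of 13 HSP90 genes and co-chaperones, 3 with sgRNA1 and 5 with sgRNA3 had an unadjusted limma p under 0.05. By the adjusted p, 0 passed with sgRNA1 and 2 rose with sgRNA3 (medians 0.07 and 0.16). HSP90AB1, the constitutive cytosolic HSP90 and the more abundant form, stood at 1208.45 and 1207.97 TPM with LACZ, 1364.60 and 1308.31 TPM with sgRNA1, and 1382.87 and 1414.99 TPM with sgRNA3, a log2 change of 0.15 (limma adjusted p = 0.0646) and 0.21 (0.0237). PPID, a cyclophilin that binds HSP90, was the other. Of 12 mitochondrial chaperones and proteases, 1 fell with sgRNA1, GRPEL2, and 1 rose and 1 fell with sgRNA3, GRPEL1 and GRPEL2. The medians were -0.01 and 0.05, and 1 and 2 of the 12 had an unadjusted limma p under 0.05. Of 17 tested of 19 other heat-induced HSF1 targets, 0 rose with sgRNA1 and 1 rose with sgRNA3, IER5 (0.51, limma adjusted p = 0.0202), while 1 fell with each guide, HSPB1, which is also in the list of small heat shock proteins. For this list 7 genes had an unadjusted limma p under 0.05 with either guide, and the medians were 0.07 and 0.17. Each call named for DNAJB11, DNAJC11, GRPEL1, BAG1, ST13, HSP90AB1, PPID and IER5 was lost when any one LACZ or sgRNA3 library was left out (limma adjusted p between 0.0675 and 0.178). Against sgRNA1, 0 genes of these 8 lists passed with sgRNA3 by limma, as did 0.578% of all genes tested. At an unadjusted limma p under 0.05 there were between 0 and 5 genes per list.

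**Figure D4:**
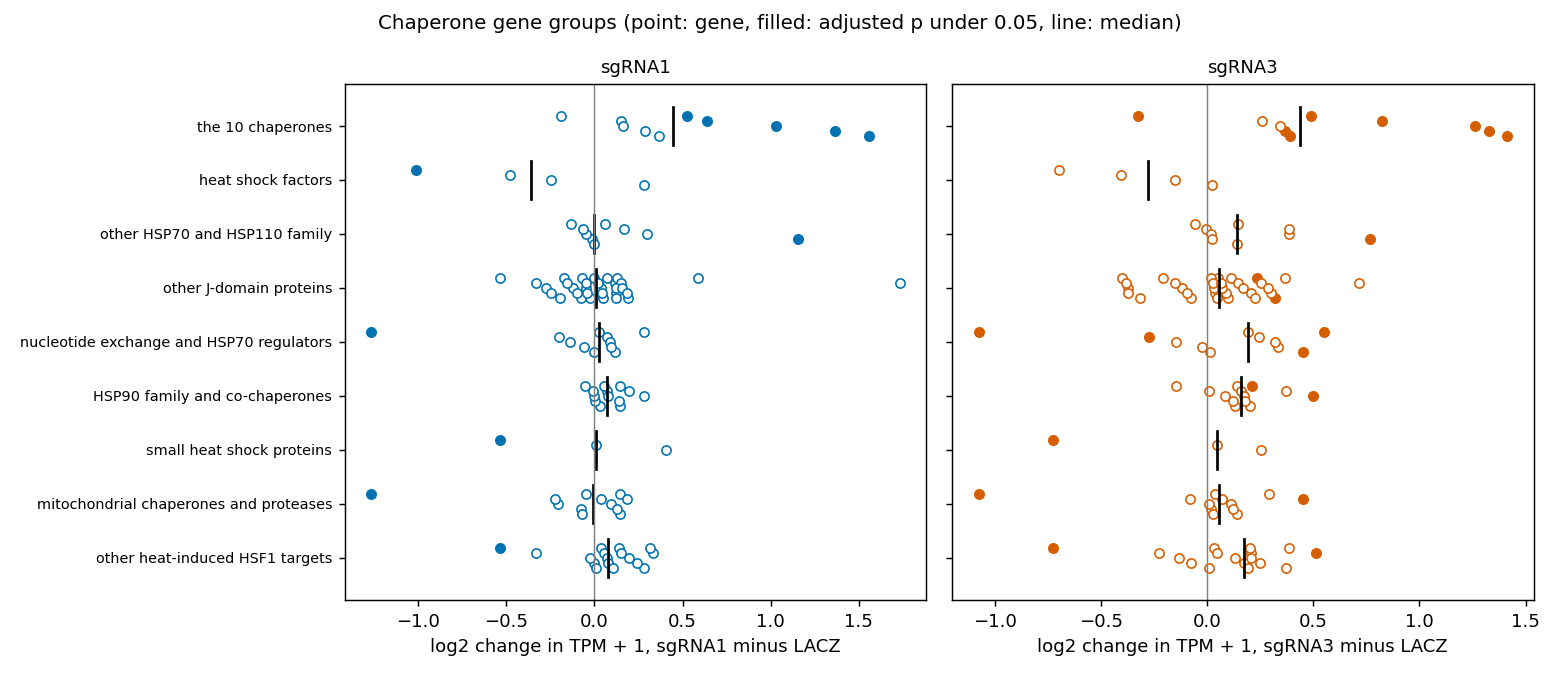
Log2 change in TPM + 1 (x axis) of single genes in each chaperone group (y axis), with sgRNA1 at left and sgRNA3 at right; filled points have an adjusted p under 0.05 and black lines are medians. The 10 chaperones have a median of 0.44 with either guide, while the medians of the other groups lie between -0.36 and 0.19 and few of their points are filled. All groups were chosen with earlier results of these data known, so this contrast is a description and no test.

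Immediate early genes, which respond within minutes to growth factors and stress, were lower in the same libraries. Of 7 tested of 9, 4 fell with sgRNA1 (4.31% of all genes) and 5 with sgRNA3 (5.25%), with medians of -1.15 and -1.26. The IER2 call with either guide was lost when any one LACZ library or library of that guide was left out (limma adjusted p between 0.0536 and 0.0699), and the FOS call with sgRNA3 (-1.26, limma adjusted p = 0.0380) without any one of the 6 libraries (0.0622 to 0.157). EGR1, a zinc finger factor, stood at 92.43 and 92.12 TPM with LACZ, 3.38 and 2.54 TPM with sgRNA1, and 2.46 and 2.70 TPM with sgRNA3. JUNB, an AP-1 subunit, stood at 49.34 and 46.50 TPM with LACZ and 10.64 to 12.56 TPM with the guides. The part of this shift in the chaperone levels was not tested.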

How the data were processed

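Total RNA of 6 CFPAC-1 libraries was extracted with TRIzol, per the labels' protocols. The authors deposited TPM values, and GRCh38, RSEM 1.3.1, HISAT2 2.1.0 and DESeq2 1.24.0 are listed in the submitters' processing notes. The sources used here give neither the annotation release nor strandedness nor the role of each tool. The H1 and H3 columns were assigned to the titles S1 and S3, which share their guide and replicate numbers. Coordinates came from GENCODE 29, which held 58611 of 58884 Ensembl identifiers, and promoter windows from RefSeq (GRCh38.p14).

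TPM values are not counts, so DESeq2 was not used. Values were analysed as log2(TPM + 1), which understates changes of low genes, over 16610 genes with at least 2 libraries at a TPM of at least 1. All 3 groups entered 1 limma fit (limma 3.58.1, R 4.3.3, data.table, version 1.17.8) with an intensity trend (3 residual and 2.34 prior degrees of freedom), tested on simulated data first. The p-values are two-sided and adjusted (Benjamini-Hochberg) over all tested genes, with a threshold of 0.05. Sums and ratios were compared by exact permutation over libraries, with the libraries of both guides taken as 1 group. Libraries of a group differed by a median absolute log2 value of 0.133 to 0.150, so none was a copy of another.

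The 10 genes and the lists were chosen with earlier results of these data known. Named were all 10 genes, SULF2 and at most 4 genes per list by the smallest p against LACZ. The 6 genes outside the lists most like HSPA8 and HSPA1A were also named. FOS, HSPA5, HSPA6, HSPA9 and DNAJC27 were named in addition. Alternatives were other pseudocounts (0.1 and 5), filters, scalings, variance settings and samples in the fit, a replicate block, HSPA1A and HSPA1B summed, and each library left out.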

Additional observations from a re-analysis of the deposited data

How the results depend on the processing

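Of the 10 genes, 5 passed with sgRNA1, 8 with sgRNA3 and 0 between the guides. With median-of-ratios scaling 9 passed with sgRNA1, and without a variance trend 4 passed with sgRNA3. With single libraries left out, 4 to 5 passed with sgRNA1 and 4 to 8 with sgRNA3, and without LACZ replicate 1, LACZ replicate 2, sgRNA3 replicate 1 or sgRNA3 replicate 2 the sgRNA3 counts were 5, 4, 4 and 4. A lone library was taken to vary as much as those of the other groups. The count between guides was 0 under every alternative. With single libraries left out, the log2 difference between guides ranged from -0.130 to 0.0844 for HSPH1, which changed sign without sgRNA1 replicate 1, and from -0.0796 to 0.00801 for HSPE1, which changed sign without sgRNA1 replicate 2, and neither passed. The summed difference of 1299 TPM became 1436 with median-of-ratios scaling and 1457 with mitochondrial transcripts removed, and 1223 to 1377 with single libraries left out. The cause of these shifts was not tested.

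Leaving out single libraries was added for the ratios after the data were seen. The guide minus LACZ differences then ranged from 0.0225 to 0.0344 for the inducible pair to HSPA8, 0.118 to 0.215 for HSPE1 to HSPD1, -0.159 to -0.135 for DNAJB1 to HSPA8, -0.0253 to -0.0182 for HSPH1 to HSPA8, -0.0270 to -0.0202 for BAG3 to HSPA8 and -0.647 to -0.515 for HSP90AA1 to HSPA8.

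Over the 3 comparisons and all alternatives, log2 changes of the 10 genes kept direction and call 500 times, lost a call 24 times and gained one 11 times, and counts in the other lists moved beyond 1.5-fold 102 times and not 384 times. Over all genes, 281 were higher and 716 lower with sgRNA1 and 637 and 872 with sgRNA3. Without a variance trend these were 62 and 233, and 180 and 377, and with no filter 146 and 396, and 345 and 440. With only the groups compared they were 63 and 248, and 361 and 472.

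Libraries with the same replicate number did not deviate together (correlation across genes -0.0179, 0.00611 and -0.0314 for the pairs of groups). No shared shift by number was thus seen over all genes, but one confined to few genes would not show in this measure. With the replicate number as a block 5, 7 and 0 of the 10 genes passed with sgRNA1, with sgRNA3 and between the guides, and over all genes 91 were higher and 286 lower with sgRNA1 and 252 and 309 with sgRNA3. Depth is unknown, so the counting error of low genes could not be separated from the spread between libraries.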
